A study of Capra hircus with 2 samples.

Results

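The family of miR-148 and miR-152 was examined in mammary gland of the dairy goat (Capra hircus) as 3 miRNAs, miR-148a, miR-148b and miR-152, each with a 3p and a 5p arm. Its members were found by sequence in the deposited lists of distinct small RNA tags: a tag of 18 nt or longer counted if it started at base 1 of the mature miRNA or lacked its first 1 or 2 bases, matched without mismatch, and was at most 3 nt longer. Of 504338 distinct tags, 192 met this rule. They carried 191076 of 7385833 tags in early involution and 1056827 of 18031615 tags in early lactation. No tag fitted both a family member and another miRNA.

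In early involution, goats late in lactation had been weaned by force 5 days before and stood at day 218 after parturition. Early lactation was day 10 after parturition. Each library was a single pool of RNA from 5 goats of the stage, so there was no replicate, no test between the stages was made, and the spread between animals is unknown. Weaning and the time since parturition cannot be told apart. Each stage also had its own library, so neither can be told apart from the preparation and sequencing of that library. Whole gland was sampled, and in such tissue fewer cells of a type and less miRNA per cell cannot be told apart. No other genotype or treatment is given in the labels. Levels are tags per 1000000 clean tags, here abbreviated TPM although the T means tags and not transcripts, and 95% intervals cover counting error only.

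A miRNA hairpin is cut into a 5p and a 3p strand, of which one is usually kept by an Argonaute protein. The kept strand pairs, mainly through its seed (bases 2 to 8), with sites in messenger RNAs and lowers their translation and stability, so miRNAs with the same seed have overlapping targets. The family's 3p arms share a seed, DNA methyltransferase DNMT1 is a known target in mammals, and miR-148a is among the most abundant miRNAs of mammary gland and milk in ruminants and humans.

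The 3p sequences are shown because they define the family and carry nearly all of its tags. Each is the most abundant deposited tag of its member, written as DNA with the seed in capitals.
miR-148a-3p: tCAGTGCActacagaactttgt
miR-148b-3p: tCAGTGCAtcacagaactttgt
miR-152-3p: tCAGTGCAtgacagaacttgg
The same tag was the most abundant form in both libraries for each of the 3. Counted from base 1 at the 5′ end, miR-148b differed from miR-148a by C9T and T10C. miR-152 differed from miR-148a by C9T, T10G and T20G and was 1 nt shorter, 21 nt against 22. The differences therefore began directly after the seed. Of the other miRNAs in the panel of 127 that served as background, none shared bases 2 to 8 or bases 2 to 7 with the family. In miR-130a, miR-130b and miR-301a, bases 1 to 7 were the same 7 bases as the family's bases 2 to 8, so the same letters lie 1 position earlier.

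The 5p sequences are shown because they do not share the 3p seed and differ from each other inside their own bases 2 to 8, again in capitals.
miR-148a-5p: aAAGTTCTgagacactccgact
miR-148b-5p: aAGTTCTGttatacactcaggct
miR-152-5p: aGGTTCTGtgatacactccga

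All 3 members of the family were lower in early involution. miR-148a-3p, the dominant member, had 24683 TPM in early involution and 56042 TPM in early lactation, from 182303 and 1010520 tags, and was 2.27-fold lower in involution (2.26 to 2.28). Its share of all clean tags was 2.47% in involution and 5.60% in lactation. Its mature tag was at rank 7 of the distinct sequences of the involution library by count and at rank 3 in the lactation library.

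miR-148b-3p had 493 TPM in early involution (477 to 509) and 1449 TPM in early lactation (1431 to 1466). It was 2.94-fold lower in involution (2.84 to 3.04), the greatest reduction of the 3 members. Among the 127 panel miRNAs it stood at rank 61 in involution and rank 30 in lactation by level, whereas miR-148a-3p changed by 1 place, with rank 6 in involution and rank 5 in lactation.

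miR-152-3p had 658 TPM in early involution (640 to 677) and 1061 TPM in early lactation (1046 to 1076). It was 1.61-fold lower in involution (1.56 to 1.66), which did not reach the 2-fold limit used here. The intervals of the 3 ratios do not overlap, so within these libraries the size of the reduction differed between members by more than counting error.

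The 5p arms were rare. miR-148a-5p had 35.7 TPM in involution (31.6 to 40.3) and 57.9 TPM in lactation (54.4 to 61.5), 1.62-fold lower in involution (1.41 to 1.86). miR-148b-5p was seen in 3 tags in involution and 15 tags in lactation, with a ratio of 0.488 whose interval, 0.0906 to 1.73, spans 1. miR-152-5p was seen in 2 tags in involution and 0 tags in lactation. Both are at or under the 3 tags that a count of 0 allows, which equal 0.406 TPM in involution and 0.166 TPM in lactation, so no fold is given. A difference in miR-152-5p was not detectable at this depth.

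**Figure D1:**
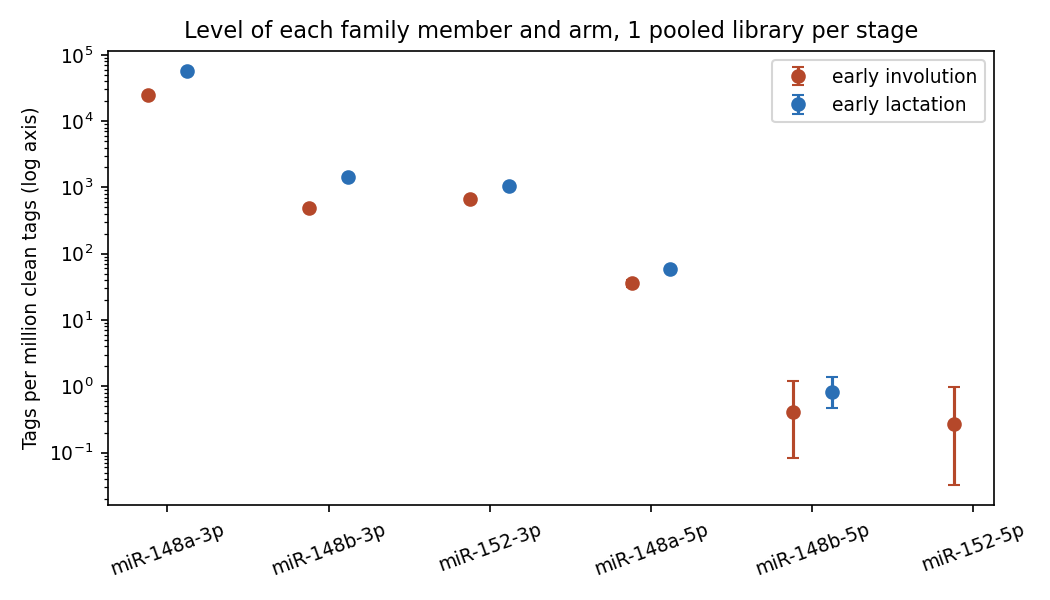
Level of each arm of the 3 members in tags per 1000000 clean tags on a log axis, with early involution left of early lactation. Points are the single pooled library of each stage and bars are exact Poisson 95% intervals, which are smaller than the points for the 4 most abundant arms. miR-148a-3p lies at 24683 TPM in involution and 56042 TPM in lactation, and miR-152-5p has no lactation point because it had 0 tags there.

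Among the 118 panel miRNAs that reached 10 TPM in at least 1 library, 7 were at least 2-fold lower in involution, or 5.93%, and 2 of these were miR-148a-3p and miR-148b-3p. At least 2-fold higher were 48, or 40.7%, and none of them belonged to the family, so that 55, or 46.6%, passed 2-fold either way. The median log2 ratio of involution to lactation over the 118 was 0.54, against -1.18 for miR-148a-3p, -1.55 for miR-148b-3p, -0.69 for miR-152-3p and -0.70 for miR-148a-5p. Counted from the lowest ratio, miR-148b-3p stood at rank 3, miR-148a-3p at rank 7, miR-148a-5p at rank 16 and miR-152-3p at rank 17. The split depended on the scaling: median-of-ratios factors gave 38 higher and 23 lower, and TMM factors gave 40 higher and 15 lower. With those factors miR-148a-3p was 3.29-fold and 2.80-fold lower in involution, and miR-152-3p was 2.34-fold and 1.99-fold lower.

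**Figure D2:**
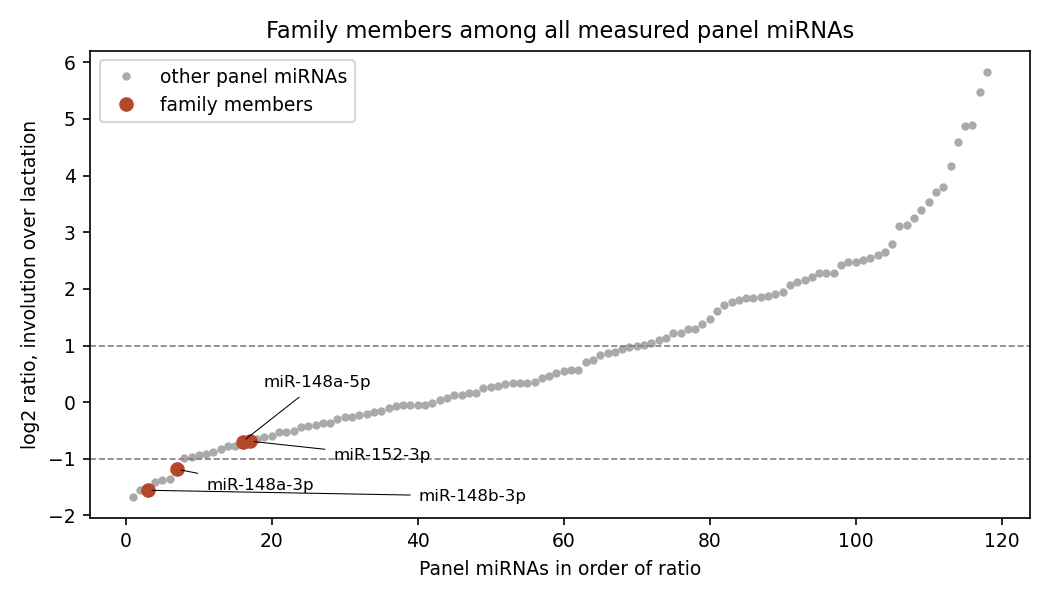
The 118 panel miRNAs in order of their log2 ratio of early involution to early lactation, with dashed lines at 2-fold either way. Red points are the family arms that reached 10 TPM, at -1.55, -1.18, -0.70 and -0.69, all left of the point where the ratios cross 0.

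miR-148a-3p held nearly the same share of the family in both libraries, while the minor members changed places. miR-148a-3p made up 95.5% of the family's 3p tags in involution (95.45 to 95.64%) and 95.7% in lactation (95.68 to 95.75%). miR-148b-3p made up 1.91% in involution (1.85 to 1.97%) and 2.47% in lactation (2.44 to 2.50%). miR-152-3p made up 2.55% in involution (2.48 to 2.62%) and 1.81% in lactation (1.79 to 1.84%). The order of the minor members was thus opposite in the 2 libraries: for each miR-148b-3p tag there were 1.33 miR-152-3p tags in involution (1.28 to 1.39) and 0.732 in lactation (0.719 to 0.746). These shares are taken within a library, so the scaling between libraries does not enter them.

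Relative to the dominant member, both minor members moved, in opposite directions. There were 50.1 miR-148a-3p tags for each miR-148b-3p tag in involution and 38.7 in lactation, a quotient of 1.29 (1.25 to 1.34). For each miR-152-3p tag there were 37.5 miR-148a-3p tags in involution and 52.8 in lactation, a quotient of 0.710 (0.687 to 0.733). In the goat gene table of RefSeq assembly ARS1.2, MIR148A lies within the long non-coding RNA gene LOC108635844, and MIR148B lies within COPZ1, which encodes a subunit of the COPI vesicle coat.

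The 3p arm dominated in every member. For miR-148a the 5p arm was 0.145% of the tags of both arms in involution (0.128 to 0.163%) and 0.103% in lactation (0.0970 to 0.110%). There were thus 691 miR-148a-3p tags for each miR-148a-5p tag in involution and 968 in lactation. For miR-148b the 5p share was 0.0823% in involution (0.0170 to 0.240%) and 0.0574% in lactation (0.0321 to 0.0946%), with intervals that overlap. For miR-152 it was 0.0411% in involution (0.00498 to 0.148%), and the 0 tags in lactation allow up to 0.0193%.

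miR-148a-3p had more uniform ends than the other miRNAs, and its ends were less uniform in involution. Tags identical to the mature form were 89.0% of miR-148a-3p in involution and 95.3% in lactation. Over the 72 other panel miRNAs with 1000 tags or more in each library, the median share of identical tags was 52.0% in involution and 52.8% in lactation. The share was higher in involution in 35 of these 72 and lower in 37. By the ratio of the involution share to the lactation share, miR-148a-3p stood at rank 42 of 75 from the highest. miR-148b-3p stood at rank 47 and miR-152-3p at rank 39, so this fall was not particular to the family. miR-148a-3p had the highest share of all 75 such miRNAs, family included, in both libraries. miR-148b-3p had 76.6% identical tags in involution and 84.8% in lactation, and miR-152-3p had 64.0% in involution and 67.4% in lactation, so all 3 members were above the median of the others.

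**Figure D3:**
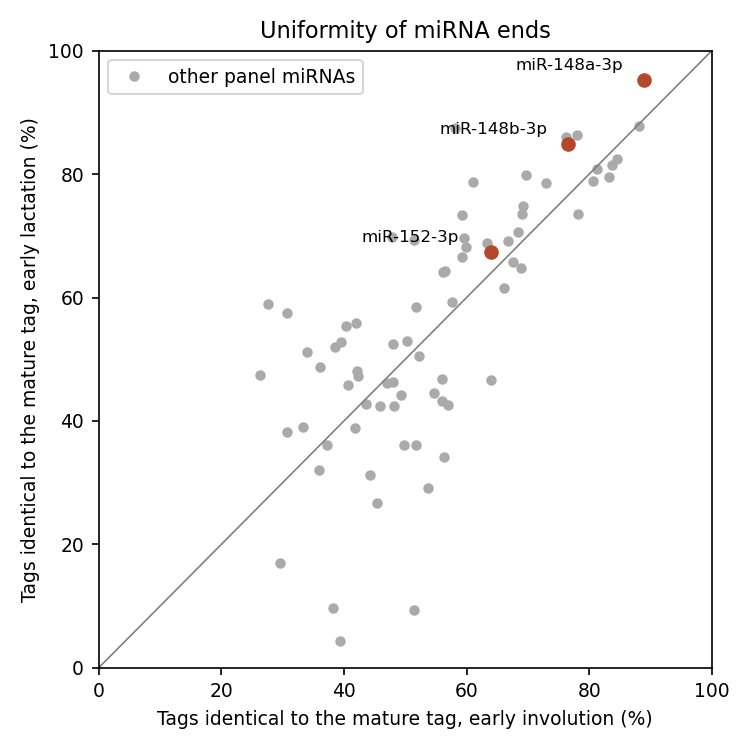
Percent of a miRNA's tags that were identical to its mature tag, in early involution on the horizontal axis and early lactation on the vertical axis, for the 75 panel miRNAs with 1000 tags or more in each. miR-148a-3p sits in the upper right corner at 89.0% and 95.3%. All 3 red family points lie above the diagonal, which marks equal shares.

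Most of the difference in miR-148a-3p lay in tags shorter at the 3′ end. Such tags made up 5.28% of miR-148a-3p in involution (5.18 to 5.38%) and 1.03% in lactation (1.01 to 1.05%). The share was 5.11 times as high in involution, the fourth highest such ratio, at rank 4 of 75. In lactation the miR-148a-3p share was itself the 4th lowest of the 75. In points its rise was 4.24, and others rose by more, such as miR-101 by 21.9 points and miR-27a by 18.6 points. miR-148b-3p had 6.26% shorter tags in involution (5.50 to 7.10%) and 1.81% in lactation (1.66 to 1.98%), and miR-152-3p had 2.06% in involution (1.68 to 2.50%) and 0.596% in lactation (0.492 to 0.716%). Those ratios of shares stood at rank 8 and rank 7 of 75, with rises of 4.45 points for miR-148b-3p and 1.46 points for miR-152-3p. The other miRNAs moved both ways: 37 of 72 had a higher share of shorter tags in involution and 35 had a lower one, with medians of 19.4% in involution and 18.7% in lactation. Their mature tag was chosen over both libraries together, so it can be a minor form in either library, and these counts depend on that choice. In miR-451, identical tags were 51.4% in involution and 9.36% in lactation, and shorter tags were 30.9% in involution and 81.4% in lactation.

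A single tag accounts for most of this. It lacks the last base of the mature form and is shown under the mature tag, so that the missing final base can be seen.
miR-148a-3p mature: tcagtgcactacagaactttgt
miR-148a-3p 21 nt: tcagtgcactacagaactttg
The 21-nt tag was counted 8886 times in involution and 8498 times in lactation, although the lactation library is 2.44 times deeper. That equals 1203 TPM in involution and 471 TPM in lactation, a ratio of 2.55 (2.48 to 2.63), while the miRNA as a whole was 2.27-fold lower. The ratio of the 21-nt tag was 1.76 with median-of-ratios factors and 2.07 with TMM factors. The 21-nt tag was 4.87% of miR-148a-3p in involution and 0.841% in lactation. Whether the shorter form differs in target choice was not measured, and its seed is the same.

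Grouped by the position of the 3′ end, whatever the start, the forms of miR-148a-3p differed in their ratio. The full-length end had 22038 TPM in involution and 53514 TPM in lactation and was 2.43-fold lower. Ends 1 nt short had 1208 TPM in involution and 473 TPM in lactation, a ratio of 2.56 (2.48 to 2.63), and the rare ends 3 nt beyond had 14.8 TPM in involution and 8.43 TPM in lactation, a ratio of 1.75. With median-of-ratios factors the ratio of ends 1 nt short was 1.76. That of ends 3 nt beyond was 1.21 with these factors, and its interval, 0.935 to 1.55, spans 1. Ends 1 nt beyond had a ratio of 0.687 and ends 2 nt beyond one of 0.672. Ends 2 nt and 3 nt short had ratios of 0.894 (0.811 to 0.986) and 0.910 (0.722 to 1.14). These lay below the ratio of the 1-nt form and above the 0.412 of the full-length end. Their shares of miR-148a-3p were thus also higher in involution. Ends 2 nt short held 0.309% in involution and 0.152% in lactation, and ends 3 nt short 0.0587% in involution and 0.0284% in lactation.

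In the minor members, too, the form 1 nt short had a higher ratio than the full-length form. For miR-148b-3p the full-length end had 379 TPM in involution and 1231 TPM in lactation and was 3.25-fold lower, while ends 1 nt short had 28.3 TPM in involution and 25.01 TPM in lactation, a ratio of 1.13 whose interval, 0.956 to 1.34, spans 1. For miR-152-3p the full-length end had 423 TPM in involution and 715 TPM in lactation and was 1.69-fold lower, while ends 1 nt short had 11.4 TPM in involution and 5.27 TPM in lactation, a ratio of 2.16 (1.59 to 2.93). The intervals of the 2 forms do not overlap in any of the 3 members. The form 1 nt short of miR-148b-3p had a ratio of 0.780 with median-of-ratios factors and 0.917 with TMM factors, both below 1. That of miR-152-3p had a ratio of 1.49 with median-of-ratios factors and 1.75 with TMM factors.

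**Figure D4:**
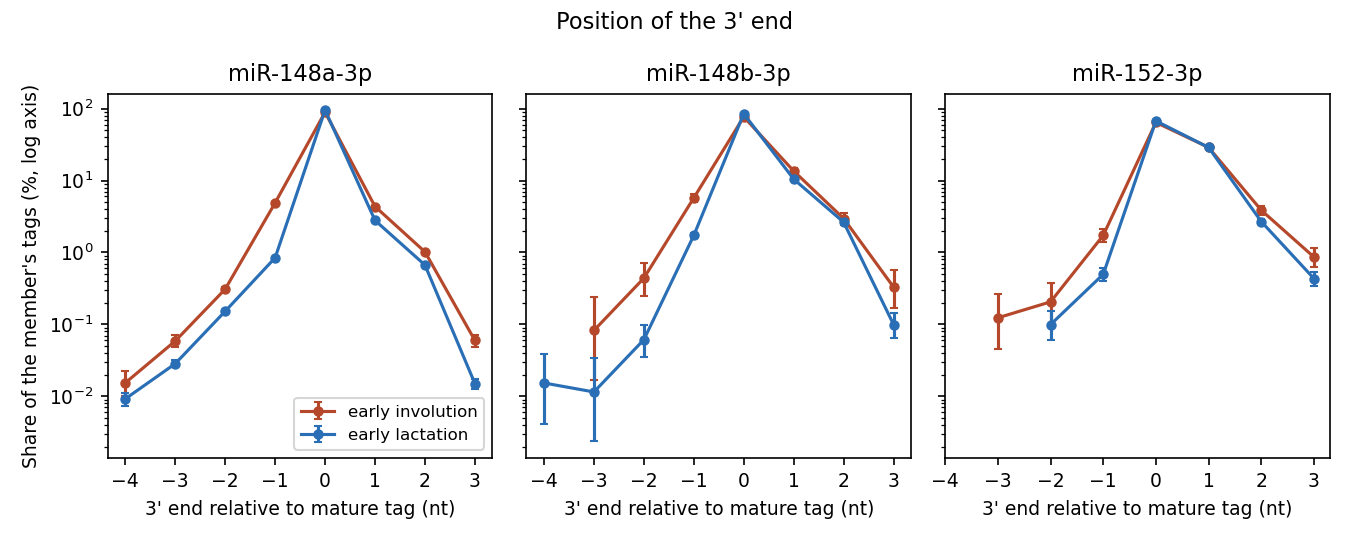
Share of each member's tags by the position of the 3′ end relative to its mature tag, in nt, on a log axis. Red is early involution and blue is early lactation, and bars are exact 95% intervals. At 1 nt short the involution share lies above the lactation share in all 3 members.

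**Figure D5:**
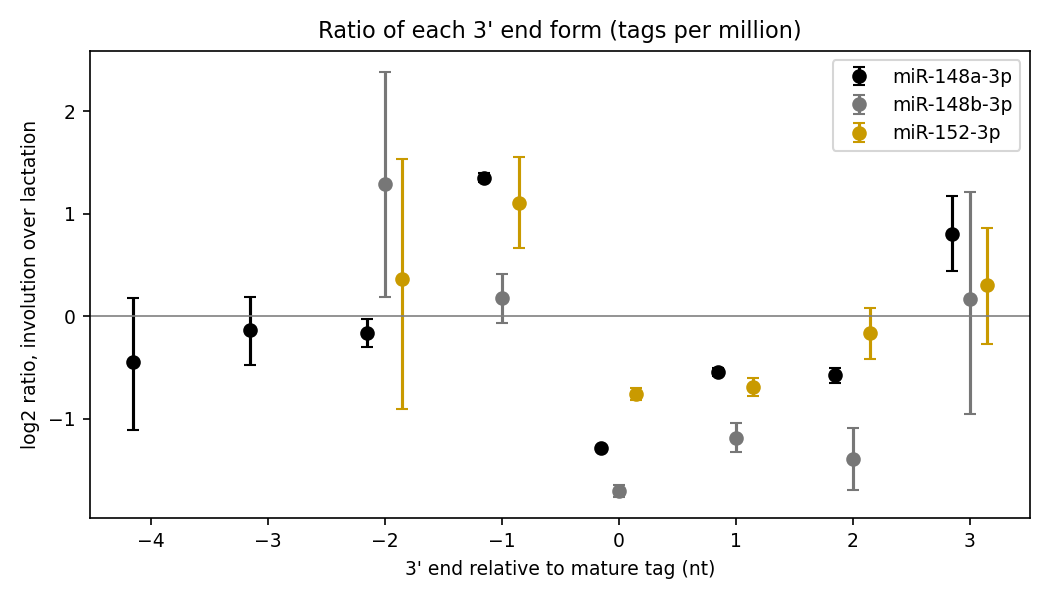
Log2 ratio of early involution to early lactation, in tags per 1000000, by 3′ end position and member, with 95% intervals. Positions with few tags in either library are not drawn, such as ends 3 nt short of miR-148b-3p and miR-152-3p. The full-length form at 0 is below the zero line in all 3 members, and the form 1 nt short of miR-148a-3p and miR-152-3p is above it.

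Tags longer than the mature form were more numerous than shorter ones in all 3 members, by little in miR-148a-3p in involution. They made up 5.44% of miR-148a-3p in involution and 3.48% in lactation, 16.9% of miR-148b-3p in involution and 13.2% in lactation, and 33.6% of miR-152-3p in involution and 31.98% in lactation. Among the other 72 miRNAs, the median was 16.9% in involution and 11.5% in lactation, with 43 higher and 29 lower in involution. The higher share in involution was thus also seen in most of the other miRNAs. The bases added to the family's mature forms differed between members, and the most abundant extended forms are shown with the added base in capitals.
miR-148a-3p with C: tcagtgcactacagaactttgtC
miR-148a-3p with T: tcagtgcactacagaactttgtT
miR-148a-3p with A: tcagtgcactacagaactttgtA
miR-148b-3p with T: tcagtgcatcacagaactttgtT
miR-152-3p with A: tcagtgcatgacagaacttggA
miR-152-3p with T: tcagtgcatgacagaacttggT

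With an added C, miR-148a-3p had 547 TPM in involution and 831 TPM in lactation, and with an added T it had 243 TPM in involution and 463 TPM in lactation. With an added A it had 260 TPM in involution and 215 TPM in lactation, a ratio of 1.21 (1.15 to 1.28) that became 0.836 with median-of-ratios factors and 0.982 with TMM factors, so its direction depended on the scaling. Within the miRNA, which no scaling affects, its share was higher in involution. The form with A held 1.05% of miR-148a-3p tags in involution and 0.383% in lactation. No hairpin sequence was used here, so added bases that the gene encodes were not separated from bases added after cutting.

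In miR-148b-3p the commonest added base was T, in 11.1% of its tags in involution and 9.0% in lactation. In miR-152-3p it was A, in 18.7% of its tags in involution and 17.2% in lactation, followed by T with 8.49% in involution and 9.69% in lactation. For miR-152-3p with A the level was 123 TPM in involution and 183 TPM in lactation.

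An A in place of the last base was counted as a separate form, since it breaks the match and lies outside the rule. For miR-148a-3p, the first 21 bases followed by A had 695 TPM in involution and 577 TPM in lactation, a ratio of 1.20 (1.16 to 1.25) and 0.830 or 0.976 with those factors. These were 2.81 such tags in involution and 1.03 in lactation for each 100 tags of the miRNA. By sequence this form is also the 21-nt tag with an added A. It was counted less often than the 21-nt tag in involution, 5130 against 8886 times. In lactation it was counted more often, 10400 against 8498 times, so the direction of its share depends on what it is set against. The first 21 bases followed by C had 160 TPM in involution and 381 TPM in lactation, a ratio of 0.421. Added and replacing A summed to 955 TPM in involution and 792 TPM in lactation for miR-148a-3p, a ratio of 1.21 (1.17 to 1.24) that likewise became 0.832 with median-of-ratios factors and 0.978 with TMM factors. For each 100 tags of the miRNA these were 3.87 in involution and 1.41 in lactation. For miR-148b-3p they were 10.9 in involution and 6.27 in lactation, and for miR-152-3p they were 19.3 in involution and 17.6 in lactation.

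An added A, C or T, and an A or T in place of the last base, were also more frequent in involution in most of the other miRNAs. For each 100 tags of a miRNA, the median number of tags with an added A over the 72 other miRNAs was 4.09 in involution and 2.85 in lactation, higher in involution in 49 and lower in 23. For an A in place of the last base, which could be counted in 58 others, the median was 1.52 in involution and 0.964 in lactation, higher in involution in 38 and lower in 20. An added T was higher in involution in 45 and lower in 27 of the 72, an added C higher in 45 and lower in 23, and an added G higher in 30 and lower in 39. A replacing T was higher in 31 and lower in 10 of 41, a replacing C higher in 30 and lower in 27 of 61, and a replacing G higher in 22 and lower in 27 of 56. The part of this wider shift in the family's end forms was not tested.

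The 5p arm of miR-148a did not show the shift seen in its 3p arm. The shorter tags of the 5p arm are shown because neither held a larger share of the arm in involution.
miR-148a-5p mature: aaagttctgagacactccgact
miR-148a-5p 21 nt: aaagttctgagacactccgac
miR-148a-5p 20 nt: aaagttctgagacactccga
The mature tag was counted 178 times in involution and 570 times in lactation, or 67.4% of the arm's tags in involution and 54.6% in lactation. The 21-nt tag was counted 43 times in involution and 295 times in lactation, or 16.3% in involution and 28.3% in lactation. Its ratio was 0.356 (0.252 to 0.491), whereas the mature 5p tag had a ratio of 0.762 (0.641 to 0.904). On this arm the 21-nt form was therefore more reduced in involution than the mature tag. The 20-nt tag was counted 38 times in involution and 171 times in lactation, or 14.4% in involution and 16.4% in lactation. Its ratio was 0.543 (0.371 to 0.775), with an interval that overlaps that of the mature tag.

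The start of the 3p arms, which sets the seed, varied little. Tags that lacked 1 or 2 bases at the start made up 0.327% of miR-148a-3p in involution and 0.240% in lactation, 0.357% of miR-148b-3p in involution and 0.195% in lactation, and 0.350% of miR-152-3p in involution and 0.120% in lactation. The median of the other 72 was 0.605% in involution and 0.333% in lactation, with 53 higher and 19 lower in involution. miR-148a-3p tags lacking 1 base had 34.1 TPM in involution and 50.5 TPM in lactation. Those lacking 2 bases had 46.7 TPM in involution and 84.1 TPM in lactation.

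Tags with 1 extra base before the first base of miR-148a-3p, outside the rule, were at 61.9 TPM in involution and 31.3 TPM in lactation. Their ratio was 1.97 (1.74 to 2.24), the opposite direction from the miRNA itself. It was 1.36 with median-of-ratios factors and 1.60 with TMM factors. For each 100 tags of miR-148a-3p there were 0.251 in involution and 0.0559 in lactation. The same form was counted 13 times in involution and 10 times in lactation for miR-148b-3p, and 19 times in involution and 9 times in lactation for miR-152-3p, each in the shallower library at or above its count in the deeper one. With so few tags the minor members give only the direction.

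Tags with a single mismatch were counted to see how far sequencing errors could move reads between members. Substitutions in bases 2 to 18 made up 1.64% of full-length miR-148a-3p tags in involution and 1.34% in lactation, and 2.13% of miR-152-3p tags in involution and 1.86% in lactation. In miR-148b-3p they made up 5.62% in involution and 4.50% in lactation, against a median over the other miRNAs of 1.44% in involution and 1.93% in lactation. Within bases 2 to 18 the commonest change in miR-148a-3p was A11C, in 883 tags in involution and 2765 tags in lactation, or 0.514% in involution and 0.278% in lactation. A11C also stood at 0.725% in involution and 0.390% in lactation of miR-148b-3p, and at 0.832% in involution and 0.536% in lactation of miR-152-3p.

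A tag of miR-148a-3p with only C9T or only T10C lies 1 base from both miR-148a-3p and miR-148b-3p. C9T was counted in 81 tags in involution and 458 tags in lactation, and T10C in 46 tags in involution and 307 tags in lactation. These intermediate tags were left out of both members. They are few beside the 3642 miR-148b-3p tags in involution and 26123 in lactation, which differ from miR-148a-3p at both positions. They are also counted among the substitutions of miR-148b-3p: read from that member, the same tags are C10T at 2.45% in involution and 1.86% in lactation and T9C at 1.39% in involution and 1.25% in lactation.

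The miRNAs whose ratio was nearest to that of each member were listed among 92 that reached 100 TPM in 1 library. For miR-148a-3p they were let-7c with a log2 ratio of -1.36, miR-99b with -0.99, miR-10a with -1.38, miR-30a-5p with -0.97 and miR-181b with -0.93. Of these let-7c and miR-30a-5p were abundant: let-7c had 7608 TPM in involution and 19583 TPM in lactation, and miR-30a-5p had 17883 TPM in involution and 34934 TPM in lactation. For miR-148b-3p the nearest were miR-100 with -1.67, then miR-10a, let-7c, miR-99b and miR-30a-5p. For miR-152-3p they were miR-182 with -0.61, miR-10b with -0.60, miR-140-3p with -0.77, miR-155 with -0.83 and miR-192 with -0.53. The likeness is between single ratios of the same pair of libraries, and says nothing of shared regulation.

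A fixed list of other miRNAs known for high levels in milk or mammary gland did not show the family's reduction as a whole. Of 25 such miRNAs, 5 passed 2-fold upwards in involution, 0 passed it downwards and 20 stayed within it, with a median log2 ratio of 0.08. Over all 118 panel miRNAs, 40.7% passed it upwards and 5.93% downwards. Median-of-ratios factors gave 2 upwards and 4 downwards for the list, with a median of -0.45, and TMM factors gave 3 upwards and 2 downwards, with a median of -0.22. Their summed level was 329285 TPM in involution and 375013 TPM in lactation. For each 100 tags of this list there were 7.50 miR-148a-3p tags in involution and 14.9 in lactation. The members nearest the family in direction were miR-30a-5p, 1.95-fold lower in involution, and miR-181a, 1.89-fold lower. The list, chosen with earlier results of these data known, holds let-7a, let-7b, let-7f, let-7g and let-7i but not let-7c. let-7c had 7608 TPM in involution and 19583 TPM in lactation and was 2.57-fold lower. The count of 0 downwards therefore holds for this list alone.

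Markers of cell types were read against the same 40.7% of all panel miRNAs that passed 2-fold upwards. Of 9 epithelial miRNAs with 10 TPM in 1 library, out of 10 listed, 3 passed 2-fold upwards in involution, a share below that of the panel, 0 downwards and 6 stayed within it, with a summed level of 26227 TPM in involution and 21414 TPM in lactation. The list did not move as one: miR-375, known from secretory and endocrine epithelium, had 5039 TPM in involution and 208 TPM in lactation, whereas miR-200c, which keeps the epithelial state by repressing ZEB factors, had 11255 TPM in involution and 15212 TPM in lactation. The remaining marker, miR-96, had 32 tags in involution and 66 tags in lactation. For each 100 epithelial-list tags there were 94.1 miR-148a-3p tags in involution and 262 in lactation. Without miR-375 the list summed to 21188 TPM in involution and 21206 TPM in lactation, and there were 116 miR-148a-3p tags in involution and 264 in lactation for each 100 tags of it. The sum joins markers that went both ways, such as miR-205 with 653 TPM in involution and 117 TPM in lactation and miR-183 with 107 TPM in involution and 197 TPM in lactation. With median-of-ratios factors 2 passed 2-fold upwards and 2 downwards, and with TMM factors 3 upwards and 1 downwards.

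Leukocyte miRNAs were at least 2-fold higher in involution in 5 of 6, against 40.7% of the panel, with a median log2 ratio of 2.14 and a summed level of 1676 TPM in involution and 1383 TPM in lactation, the exception being miR-155. Stromal miRNAs were higher by at least 2-fold in 2 of 7, with a summed level of 323764 TPM in involution and 314691 TPM in lactation that is nearly all miR-143. Erythroid miRNAs, found in red blood cells, were higher in 2 of 3, with a summed level of 3136 TPM in involution and 923 TPM in lactation. Of the endothelial markers 1 of 2 was higher, with 7085 TPM in involution and 7584 TPM in lactation in sum, and of the muscle markers 1 of 3, with 1102 TPM in involution and 1467 TPM in lactation. With median-of-ratios factors the upward counts of these 5 lists were unchanged, but 1 leukocyte, 1 stromal and 1 muscle miRNA passed 2-fold downwards. With TMM factors only 1 leukocyte miRNA did. No listed marker was at 0 in either library. The part of these markers in the lower level of the family was not tested.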

How the data were processed

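The deposited files hold raw counts: per the description deposited by the authors, each distinct clean tag is given with its length and read number, after removal of low-quality reads, adaptors and short tags. Tags ran from 18 to 44 nt. Per the labels' protocols, RNA of 18 to 30 nt was selected, ligated to 5′ and 3′ adaptors, amplified and sequenced on Solexa. For trimming and mapping no tool is given in the sources used here. The involution library held 7385833 tags and the lactation library 18031615, and tags carried no molecular identifiers.

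Each mature sequence was taken as the most abundant deposited tag, by TPM summed over both libraries, that began with a short stretch of the conserved miRNA. All end shares depend on this choice. The background panel was found in the same way from 121 names written from general knowledge, which with the 6 family arms gives 127. It stands in for the reference table of miRNAs that was planned, since none was used here, and added bases could not be split by hairpin. Panel tags were 74.8% of the involution library and 81.3% of the lactation library. Tags fitting 2 panel miRNAs were set aside, 0.175% of the involution library and 0.0421% of the lactation library.

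Intervals are 95% intervals: exact Poisson for levels, Clopper-Pearson for shares, and conditional Clopper-Pearson for ratios. With 1 pooled library per stage no p-value was computed. A miRNA counted as higher or lower at 2-fold with at least 10 TPM in 1 library. End shares used miRNAs with 1000 tags or more in each library. Named miRNAs are the members with both arms, up to 5 of their most abundant tags, the 5 nearest ratios for each member among miRNAs of at least 100 TPM, and members of the fixed lists. Tags with a replaced last base, an extra first base or a substitution and the count of tags of 32 nt or more were added after values had been seen. The members, lists and rules were chosen with earlier results of these data known. Alternatives covered scaling, assignment, the filter on level and thinning. The intervals were tested on simulated counts that held counting error only, and the assignment rule on altered copies of the miR-148a-3p tag. Variation between animals or libraries was not simulated. Calculations used Python 3.11.15, numpy 2.4.6, scipy 1.17.1 and, for TMM factors, R 4.3.3 with edgeR 4.0.16.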

Additional observations from a re-analysis of the deposited data

Results flagged for a closer look

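Some tags longer than the selected 18 to 30 nt held a whole family miRNA, which the comparisons above do not use. Tags of 32 nt or more that held miR-148a-3p numbered 32 in involution and 287 in lactation, or 4.33 TPM in involution and 15.9 TPM in lactation, with a ratio of 0.272 (0.183 to 0.393). Those that held miR-152-3p numbered 1 in involution and 8 in lactation, and those that held miR-148b-3p numbered 1 in involution and 3 in lactation. The miR-148a-3p counts in both libraries and the miR-152-3p count in lactation were singled out because they exceed the 3 that a count of 0 allows. No control library was there to set a background.

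Of the tags that held miR-148a-3p, 4 in involution and 123 in lactation held a second copy of it beside the first. Another 4 in involution and 37 in lactation held miR-143, and 0 in involution and 36 in lactation held a member of the let-7 group. In 22 in involution and 54 in lactation no other panel miRNA was found. How these joined tags arose was not tested.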

How the results depend on the processing

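No direction of a member's ratio reversed. Of the end forms, tested under other scalings chosen after seeing the data, 4 of 24 reversed. These forms overlap, so the count is not a rate over separate results. The form with either A joins the added and the replacing A, and ends 1 nt short of miR-148a-3p are nearly all the 21-nt tag. Ratios with median-of-ratios factors, TMM factors and the epithelial list were 0.780, 0.917 and 0.924 for miR-148b-3p 1 nt short, 0.836, 0.982 and 0.989 for miR-148a-3p with an added A, 0.830, 0.976 and 0.983 with A in place of its last base, and 0.832, 0.978 and 0.985 with either A. For miR-148a-3p the log2 ratio of -1.18 became -1.06 relative to the miRNA tags, -1.72 with median-of-ratios factors, -1.49 with TMM factors, -1.16 without the most abundant miRNA, -1.28 with identical tags alone and -1.15 with 1 mismatch allowed. For miR-148b-3p, -1.55 became -1.43, -2.09 and -1.86 under the first 3 of these, -1.70 with identical tags alone and -1.50 with 1 mismatch. For miR-152-3p, -0.69 became -0.57, -1.22 and -0.99 under the first 3, and -0.76 with identical tags alone. Scaling to the epithelial list, an alternative chosen after seeing the data, gave -1.48 for miR-148a-3p, -1.85 for miR-148b-3p and -0.98 for miR-152-3p. miR-152-3p passed 2-fold with median-of-ratios factors alone. The count of lower miRNAs, 7, became 23 with median-of-ratios factors and 15 with TMM factors, and these factors shifted all log2 ratios by -0.54 and -0.30. Among identical tags miR-148a-3p held 96.5% of the family in both libraries. The cause of these changes was not tested. No paired analysis was possible because each stage had 1 pooled library, and leaving out a replicate was not possible for the same reason. Depth limits the 5p arms of miR-148b and miR-152.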
